A study of Mus musculus with 32 samples.

Results

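The liver was set against brain, heart and kidney in mouse tissue profiled by chromatin immunoprecipitation of RNA polymerase II (Pol II) followed by sequencing. The comparison was defined by organ label alone: 2 of the 8 Pol II profiles were liver, 1 frozen and 1 formalin-fixed and paraffin-embedded (FFPE), and the other 6 were the frozen and FFPE profiles of the 3 other organs. A gene entered the test when its level was at least 2 on the log2 scale in both liver profiles or in at least 2 of the other profiles, which kept 24497 of 27179 genes. Of these, 94 were kept only because of their liver values and 3930 only because of the other organs.

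The study compared 4 organs from mice, each preserved in 2 ways. Cores of frozen organs received 1% formaldehyde for 30 min as crosslinker, while FFPE organs were fixed in 10% formalin, cleared of paraffin and extracted with heat, so preservation and extraction changed together. Both kinds of chromatin were sheared and precipitated with an antibody to the C-terminal domain of Pol II. Per the labels there were 2 Pol II libraries for each organ and preservation, whose descriptions carry different dates and kit names, but the table holds 1 column for each, so a column could be either library or their sum. The groups were frozen brain, heart, kidney and liver and their FFPE counterparts, and the labels used here give no strain, sex, age, number of animals or treatment beyond preservation. The p-values rest on how far organ differences departed from being equal in frozen and FFPE tissue, with 3 residual degrees of freedom. A prior from the genes tested, worth 19.1 degrees of freedom, was added to this spread. No replicate columns enter the fit, and its spread need not be spread between animals.

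The hepatocyte, the main cell of the liver, makes most of the proteins of blood plasma and exports them through the endoplasmic reticulum and Golgi apparatus. The same cell releases glucose during fasting, turns ammonia into urea, makes bile acids and ketone bodies and oxidises and conjugates foreign compounds. Factors of the HNF4, FOXA and C/EBP families bind the control regions of these genes. Because the antibody reads polymerase on the gene, the values reflect where polymerase sits and not how much RNA or protein accumulates.

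Promoters of 5 liver-secreted proteins are shown: that of albumin, and those of the secreted genes with the highest liver folds that carry searched motif letters. The letters were GTTAAT, searched as a half-site of the factor HNF1, or those searched for C/EBP. They belong to albumin, the beta and alpha chains of fibrinogen, insulin-like growth factor binding protein 1 and the serpin SERPINA1E. Each line gives the 250 bases before the RefSeq start in GRCm38.p6, written 5′ to 3′ on the gene's own strand, with motif letters in capitals.
Alb: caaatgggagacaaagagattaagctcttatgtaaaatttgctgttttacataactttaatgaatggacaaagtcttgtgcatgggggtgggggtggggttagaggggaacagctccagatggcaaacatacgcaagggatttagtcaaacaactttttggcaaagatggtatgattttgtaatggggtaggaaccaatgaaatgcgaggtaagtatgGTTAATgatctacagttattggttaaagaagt
Fgb: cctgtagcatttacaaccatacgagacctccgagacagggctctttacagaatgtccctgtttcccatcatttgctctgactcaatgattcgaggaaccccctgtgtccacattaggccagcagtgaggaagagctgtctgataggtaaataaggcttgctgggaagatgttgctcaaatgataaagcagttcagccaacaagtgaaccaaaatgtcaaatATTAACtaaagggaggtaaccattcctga
Igfbp1: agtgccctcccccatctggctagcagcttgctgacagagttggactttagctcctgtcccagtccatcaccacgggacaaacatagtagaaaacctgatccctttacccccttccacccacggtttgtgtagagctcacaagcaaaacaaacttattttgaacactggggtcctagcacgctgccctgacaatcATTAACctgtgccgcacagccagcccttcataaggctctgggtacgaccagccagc
Fga: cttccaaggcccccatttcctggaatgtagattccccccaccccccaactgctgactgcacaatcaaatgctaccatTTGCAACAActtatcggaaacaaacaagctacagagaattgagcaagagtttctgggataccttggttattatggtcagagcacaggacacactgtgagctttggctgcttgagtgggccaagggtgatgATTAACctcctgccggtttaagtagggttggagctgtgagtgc
Serpina1e: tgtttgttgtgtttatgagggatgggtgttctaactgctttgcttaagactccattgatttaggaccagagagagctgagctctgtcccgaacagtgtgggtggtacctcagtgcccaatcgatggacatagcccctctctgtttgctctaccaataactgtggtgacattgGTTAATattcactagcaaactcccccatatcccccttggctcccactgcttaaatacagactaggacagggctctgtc

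The Alb stretch lies at chr5:90460620-90460869 on the plus strand, with GTTAAT beginning 32 bases before the start. Its counterpart for Fgb is chr3:83049864-83050113 on the minus strand, where ATTAAC, the same letters read from the other strand, begins 29 bases before the start. For Igfbp1 the stretch is chr11:7197537-7197786 on the plus strand with ATTAAC at 56 bases. Fga, at chr3:83025903-83026152 on the plus strand, holds ATTAAC at 43 bases and TTGCAACAA, of the looser C/EBP search, at 173 bases. Serpina1e, at chr12:103956898-103957147 on the minus strand, holds GTTAAT at 78 bases. These matches describe letters and show no binding.

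Of the 18458 genes of the table with a promoter entry, 6.79% held the letters GTTAAT on either strand in at least 1 promoter. These genes have 22271 promoters, so a gene with several had more chances to match, and all shares here are of genes. The share was 10.8% among 935 genes called higher in liver and 6.32% among 665 called lower. It was 26.7% among 105 genes of the secreted protein lists and 12.8% among 312 genes of the metabolic lists. The HNF4 letters CAAAGTCCA and TGAACTTTG were found for 0.471% and 0.390% of all genes with a promoter entry, and for 1.39% and 1.82% of genes called higher. TTGCNNCAA, searched as a looser spacing of the C/EBP half-sites, was present for 1.81% of all these genes and 2.46% of higher genes. The C/EBP palindrome TTGCGCAA occurred in 0.233% and 0.321%, and the TATA box letters TATAAA in 13.3% and 13.9%. In the secreted and metabolic sets CAAAGTCCA was held by 0% and 3.53% of genes, TGAACTTTG by 0.952% and 1.60%, and TTGCNNCAA by 1.90% and 4.17%. TTGCGCAA was held there by 0.952% and 0.321%, and TATAAA by 21.0% and 17.9%. The higher and lower sets were formed from the measured calls and the secreted and metabolic sets from the gene lists, and no test was made of these shares.

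The levels of 4 hepatocyte markers are described first. They were chosen with earlier results of these data known and are among the 10 largest folds below. Their values are therefore no independent check of the organ label. Levels are log2 of reads scaled to depth by the authors (CPM on the log2 scale), listed for frozen and then FFPE tissue. Albumin (Alb, Entrez 11657, chr5:90460870-90476602) had 3.96 and 3.96 in brain, 3.38 and 4.37 in heart, 4.29 and 3.79 in kidney and 11.41 and 8.71 in liver. The tyrosine-degrading enzyme gene Tat (Entrez 234724, chr8:109986078-109999804) had 4.42 and 4.42 in brain, 2.95 and 4.69 in heart, 4.08 and 3.93 in kidney and 11.44 and 9.19 in liver. Both liver profiles lay far above all 6 others for both genes.

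Fibrinogen beta chain (Fgb, Entrez 110135, chr3:83042246-83049863) had 2.72 and 2.37 in brain, 1.59 and 0.91 in heart, 3.35 and 2.90 in kidney and 9.81 and 6.59 in liver. Apolipoprotein A-V (Apoa5, Entrez 66113, chr9:46268608-46271921), a regulator of plasma triglyceride, had 2.93 and 4.13 in brain, 2.33 and 2.50 in heart, 3.99 and 4.00 in kidney and 10.21 and 7.80 in liver. Again the liver did not overlap any other organ in either preservation, and for all 4 markers the frozen liver was above the FFPE liver. The log2 folds (± SE of the fit, as for every fold below) were 6.10 ± 0.42 for Alb, 6.23 ± 0.43 for Tat, 5.89 ± 0.51 for Fgb and 5.69 ± 0.45 for Apoa5, and the largest of their 4 adjusted p-values was 8.9e-08 in limma with Benjamini-Hochberg adjustment.

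**Figure D1:**
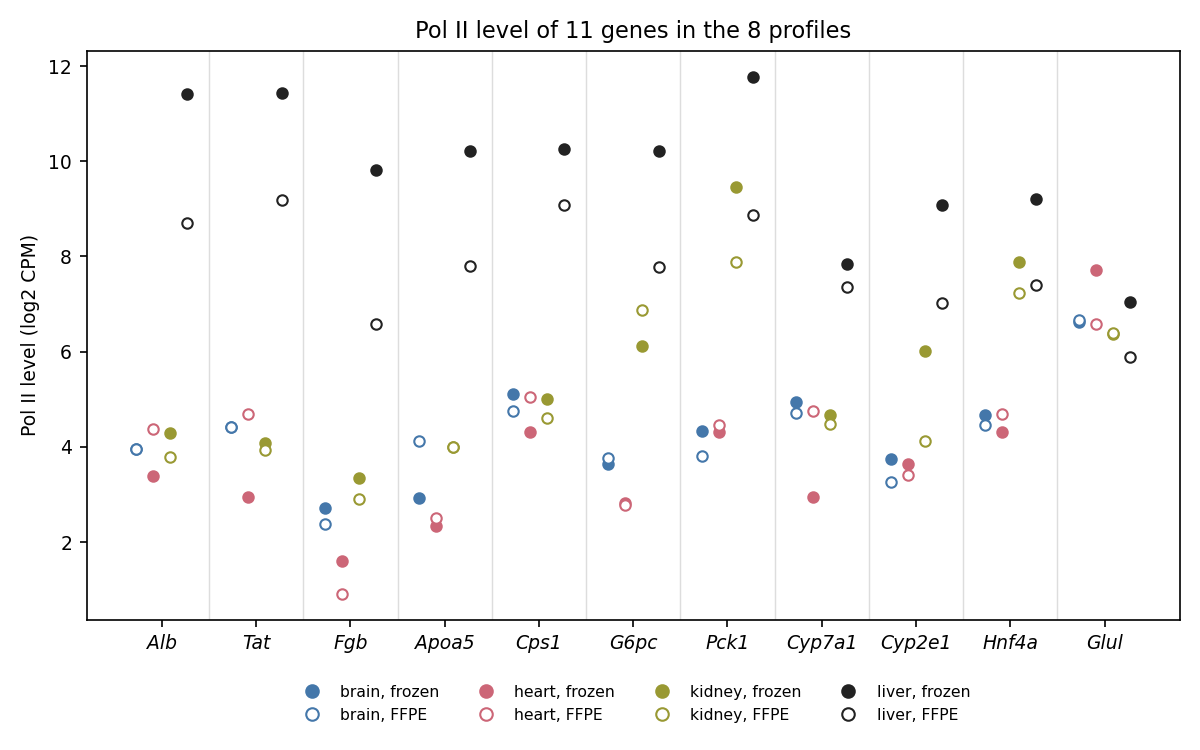
Pol II level of 11 genes (vertical axis, log2 CPM) in the 8 profiles, 1 point each; colours mark organs, filled points frozen tissue and open points FFPE tissue. The black liver points stand above the other organs of the same preservation for the first 10 genes, while for Glul the frozen liver lies below frozen heart and the FFPE liver is the lowest of all points.

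Over all genes tested, 1242 (5.07%) were higher and 938 (3.83%) lower in liver at an adjusted p under 0.05 by limma with Benjamini-Hochberg adjustment. The liver fold is the liver level minus the mean of the other organs on the log2 scale, with preservation as a term, and its median was -0.02 over the whole table. A fold of at least 1 in both preservations, read without a test, was held by 988 of 27179 genes (3.64%), among them 30 of 37 carrier and acute phase genes, 18 of 25 coagulation genes, 34 of 60 P450 and related genes and 34 of 56 genes of amino acid breakdown. Among the higher genes 353 had a fold of at least 2, and among the lower genes 105 had a fold of -2 or below. All 1242 higher genes had a positive fold in both preservations, and 937 of 938 lower genes a negative one. The liver value lay above every other organ within each preservation for 1096 of the higher genes, against 2750 genes (11.2%) over all genes tested, and below for 684 of the lower genes, against 2512 (10.3%). The counts given for gene groups below are read against these shares. The genes tested include 1343 of the 1527 olfactory, vomeronasal and taste receptor genes, so passing the filter does not by itself show polymerase on a gene. A gene that did not pass the test is not thereby shown to be equal between organs.

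How many genes are called depends on how the spread is estimated and on the frozen liver. Without a trend in the prior spread limma called 0 genes (4232 at an unadjusted p under 0.05), a fit of liver against not liver called 386 higher and 53 lower, and without the frozen liver 339 and 472 were called. With mitochondrial genes left out and the authors' scaling factors not used, 1072 were higher and 1260 lower, and the median fold moved to -0.14.

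Total reads in genes ranged from 864816 in FFPE liver to 2178329 in frozen liver, and the median gene had 16 to 39 reads per profile. Mitochondrial genes took 7.73% to 25.6% of the reads, with FFPE heart at the top and the liver profiles at 10.1% and 11.8%. A gene with no read stands at -0.90 in FFPE liver and at -1.91 in frozen liver, so folds of genes with few reads are imprecise and partly set by depth.

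Compared with each organ in turn, 1458 genes (5.95%) were higher and 1088 (4.44%) lower in liver than in brain. The counts were 997 (4.07%) and 944 (3.85%) against heart, and 633 (2.58%) and 398 (1.62%) against kidney, all by limma. These comparisons share the liver profiles.

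The 10 largest folds among genes whose liver values stood clear of the others in both preservations were mostly of secreted proteins. They were Mup3 (6.38 ± 0.87), Tat (6.23 ± 0.43), a gene without a symbol in the table (Entrez 100504264, 6.21 ± 1.01), Alb, Fgb, Serpina3k (5.76 ± 0.57), Apoa5, Ahsg (5.48 ± 0.46), Igfbp1 (5.35 ± 0.44) and Apoa2 (5.26 ± 0.54). Apart from Tat, an enzyme of the cytosol, and the unnamed gene, each encodes a protein of plasma or urine. The unnamed gene was kept only through its liver values: frozen liver held 208 reads, FFPE liver 28 and the rest 0 to 4.

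As a group, genes of the secreted protein lists took a far larger part of the reads in liver. These lists also hold genes of lipoprotein assembly, such as Mttp and Tm6sf2, whose proteins are not themselves secreted. Input libraries were not used, so the shares include any background reads. The 131 genes of 6 secreted lists held 3.08% of the reads in nuclear genes in frozen liver (95% Wilson interval 3.06 to 3.11) and 1.02% in FFPE liver (0.993 to 1.04), against 0.243% to 0.342% in the other 6 profiles. The 400 genes of 11 metabolic lists held 5.77% (5.74 to 5.81) and 3.09% (3.05 to 3.13), against 1.27% to 1.88%. In both sets the liver profiles were the highest and kidney came next. The intervals cover counting error only.

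**Figure D2:**
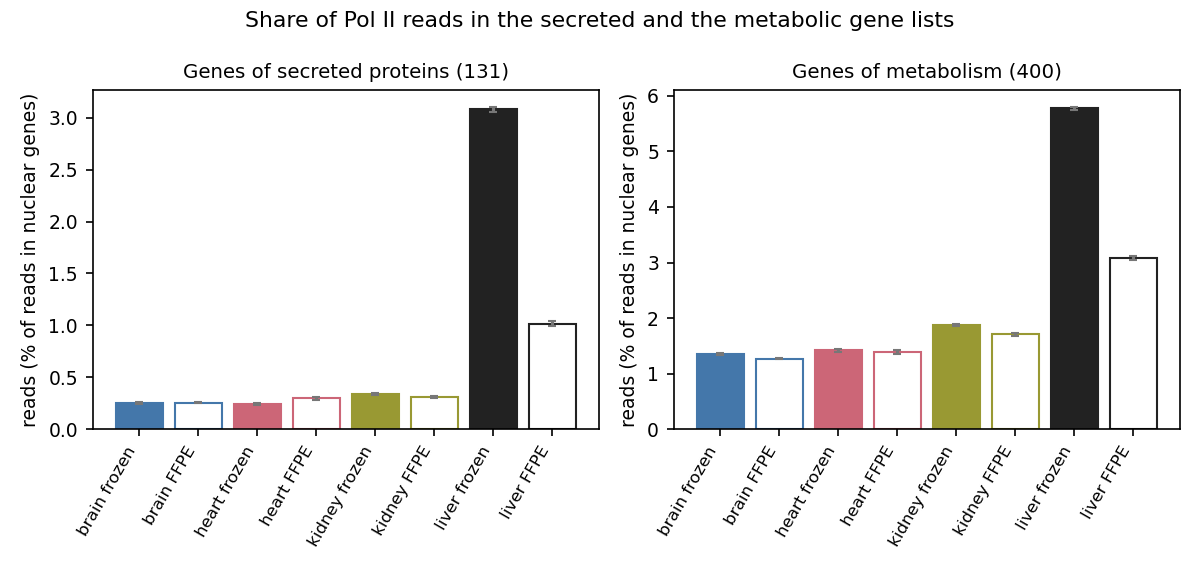
Share of reads in nuclear genes (vertical axis, percent, starting at 0) in 131 genes of the secreted protein lists (left) and 400 metabolic genes (right). Each profile has 1 bar with its 95% Wilson interval. Filled bars are frozen and open bars FFPE tissue. Frozen liver reached 3.08% and 5.77% and FFPE liver 1.02% and 3.09%, above every other profile.

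All 4 genes of the albumin family, which carry fatty acids, vitamin D and vitamin E in plasma, were higher (2 without the frozen liver). The median of the 4 folds was 2.33. Gc, the vitamin D binding protein, had a fold of 2.94 ± 0.40, Afm, which encodes afamin, 1.72 ± 0.41, and Afp, the alpha-fetoprotein gene known for its expression in fetal liver, 1.21 ± 0.38.

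Clotting factors formed the next group. Of 25 genes of coagulation and fibrinolysis, 22 were higher (7 without the frozen liver) and 0 lower, with a median fold of 2.0 (2.58 in frozen and 1.46 in FFPE tissue). The other fibrinogen chains, Fga and Fgg, had folds of 5.15 ± 0.44 and 4.92 ± 0.51. Plasminogen (Plg), the precursor of the enzyme that dissolves clots, had 3.86 and 4.61 in brain, 4.10 and 3.58 in heart, 4.60 and 4.48 in kidney and 8.64 and 7.14 in liver, and a fold of 3.69 ± 0.34. Its frozen and FFPE liver values were both above all others. Antithrombin (Serpinc1, 2.61 ± 0.37), factor X (F10, 2.44 ± 0.43) and prothrombin (F2, 2.0 ± 0.37, whose annotated span overlaps Ckap5) were also higher. Cpb2 (1.21 ± 0.42), F13b (1.06 ± 0.40) and Hgfac (0.83 ± 0.33) did not pass the test.

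In the complement list, 19 of 21 genes were higher (6 without the frozen liver) and 0 lower, with a median fold of 1.89. C3, the central component, had 4.45 and 5.06 in brain, 5.14 and 4.82 in heart, 5.58 and 5.37 in kidney and 9.11 and 6.97 in liver. The frozen liver stood apart most, and the FFPE liver was also above each FFPE organ, giving a fold of 2.97 ± 0.35. C9, which forms the membrane pore, had a fold of 2.73 ± 0.36, Mbl2, a lectin that starts the cascade, 2.32 ± 0.51, and C4b, whose near-identical copies could share reads, 2.57 ± 0.28. Fcna (0.21 ± 0.48) and Colec11 (-0.17 ± 0.54) did not pass the test.

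Of 19 genes of apolipoproteins and lipoprotein assembly, 15 were higher (5 without the frozen liver) and 0 lower, with a median fold of 2.51. Apoa2, Apoc3 and Apoa1, components of high and very low density lipoproteins, had folds of 5.26 ± 0.54, 4.59 ± 0.72 and 4.25 ± 0.47, and Apoa2 overlaps Tomm40l on the annotation. Apob, the structural protein of very low density lipoprotein, had 6.28 and 6.33 in brain, 5.68 and 6.10 in heart, 6.63 and 6.39 in kidney and 10.96 and 8.98 in liver. Liver stood above each other organ in both preservations, with a fold of 3.73 ± 0.31. Apoc4 (3.82 ± 0.74) was kept only through its liver values. Mttp, which loads lipid onto Apob, was higher by a smaller amount (1.27 ± 0.24). Apom (1.05 ± 0.45), Lipc (0.93 ± 0.36), Tm6sf2 (0.40 ± 0.36) and Pltp (0.13 ± 0.36) did not pass the test.

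Carrier and acute phase proteins had the highest median fold of the 38 lists, 2.93 (3.72 frozen and 2.06 FFPE), with 31 of 37 genes higher (20 without the frozen liver) and 0 lower. Serpina3k, a protease inhibitor, had 1.78 and 0.79 in brain, 3.07 and 3.58 in heart, 1.23 and 2.75 in kidney and 9.16 and 6.75 in liver. The liver was above all other profiles, none of which had more than 12 reads. The thyroxine carrier Ttr (4.25 ± 0.44), the retinol carrier Rbp4 (4.01 ± 0.60), the iron carrier Trf (3.96 ± 0.39), haptoglobin (Hp, 3.90 ± 0.39) and haemopexin (Hpx, 2.96 ± 0.43) were all higher.

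The members of that list that did not pass the test were Saa1, Saa2, Orm2, Orm3, A1bg and Serpina7. Saa1, an acute phase protein known to rise strongly in inflammation, had 2.72 and 2.37 in brain, 0.01 and 2.14 in heart, 2.15 and 0.83 in kidney and 2.85 and 3.62 in liver, which is 13 reads in frozen and 11 in FFPE liver. Its liver values were only slightly above the others and the fold of 1.53 ± 0.79 had an adjusted p of 0.283 in limma. Orm1, an acute phase glycoprotein gene, had a fold of 2.67 ± 0.55 and passed. Mup, Serpina1, Serpina3, Saa and Orm genes lie in families of near-identical copies, so reads could be divided among them and single-gene values are uncertain.

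Hormones and growth regulators of liver origin were also mostly higher. Of 25 genes, 18 were higher (6 without the frozen liver), 0 lower and 1, Hamp2, was not kept, and the median over all 25 was 1.75. Igfbp1, an insulin-repressed binding protein of insulin-like growth factors, had 3.03 and 2.84 in brain, 1.88 and 3.03 in heart, 3.94 and 2.90 in kidney and 9.10 and 7.47 in liver. Both liver profiles were far above the rest, and the fold was 5.35 ± 0.44. Hepcidin (Hamp), the hormone that blocks iron export from cells, had 1.54 and 0.79 in brain, 1.23 and 0.91 in heart, 2.15 and 1.67 in kidney and 7.03 and 4.06 in liver, and its fold of 4.16 ± 0.70 rests on a gene kept only through its liver values.

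Igfbp2 (3.17 ± 0.44), Angptl4 (2.95 ± 0.35), an inhibitor of lipoprotein lipase, and Selenop (2.66 ± 0.34), the selenium carrier, whose span overlaps Ccdc152, were also higher. Angiotensinogen (Agt, 2.20 ± 0.45), Fgf21 (2.42 ± 0.63) and Igf1 (1.75 ± 0.31) followed. Igf2 (0.03 ± 0.41), Hgf (0.55 ± 0.36), Inhba (0.48 ± 0.56), Lect2 (0.65 ± 0.58), Angptl6 (0.54 ± 0.28) and Adm2 (-1.17 ± 0.56) did not pass the test.

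The machinery that folds and exports these proteins moved less. Of 56 genes of the endoplasmic reticulum and early secretory pathway, 27 were higher (6 without the frozen liver) and 0 lower, with a median fold of 0.82 (1.17 frozen and 0.46 FFPE). Hspa5, the main chaperone of that compartment, which overlaps Rabepk on the annotation, had 7.55 and 6.92 in brain, 8.04 and 7.10 in heart, 7.75 and 7.35 in kidney and 9.95 and 7.56 in liver. The frozen liver was highest of all profiles, whereas the FFPE liver exceeded FFPE kidney, the next FFPE organ, by little, and the fold was 1.30 ± 0.28. Creb3l3, a membrane-bound transcription factor of the compartment, had 2.22 ± 0.39, Spcs2 of the signal peptidase 2.02 ± 0.26, and the chaperone gene Hyou1 1.83 ± 0.23. Members of the translocon and glycosylation complexes such as Sec61a1 (0.60 ± 0.26), Rpn1 (0.36 ± 0.25), Rpn2 (-0.11 ± 0.31) and Ssr4 (-0.03 ± 0.40) did not pass the test.

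**Figure D3:**
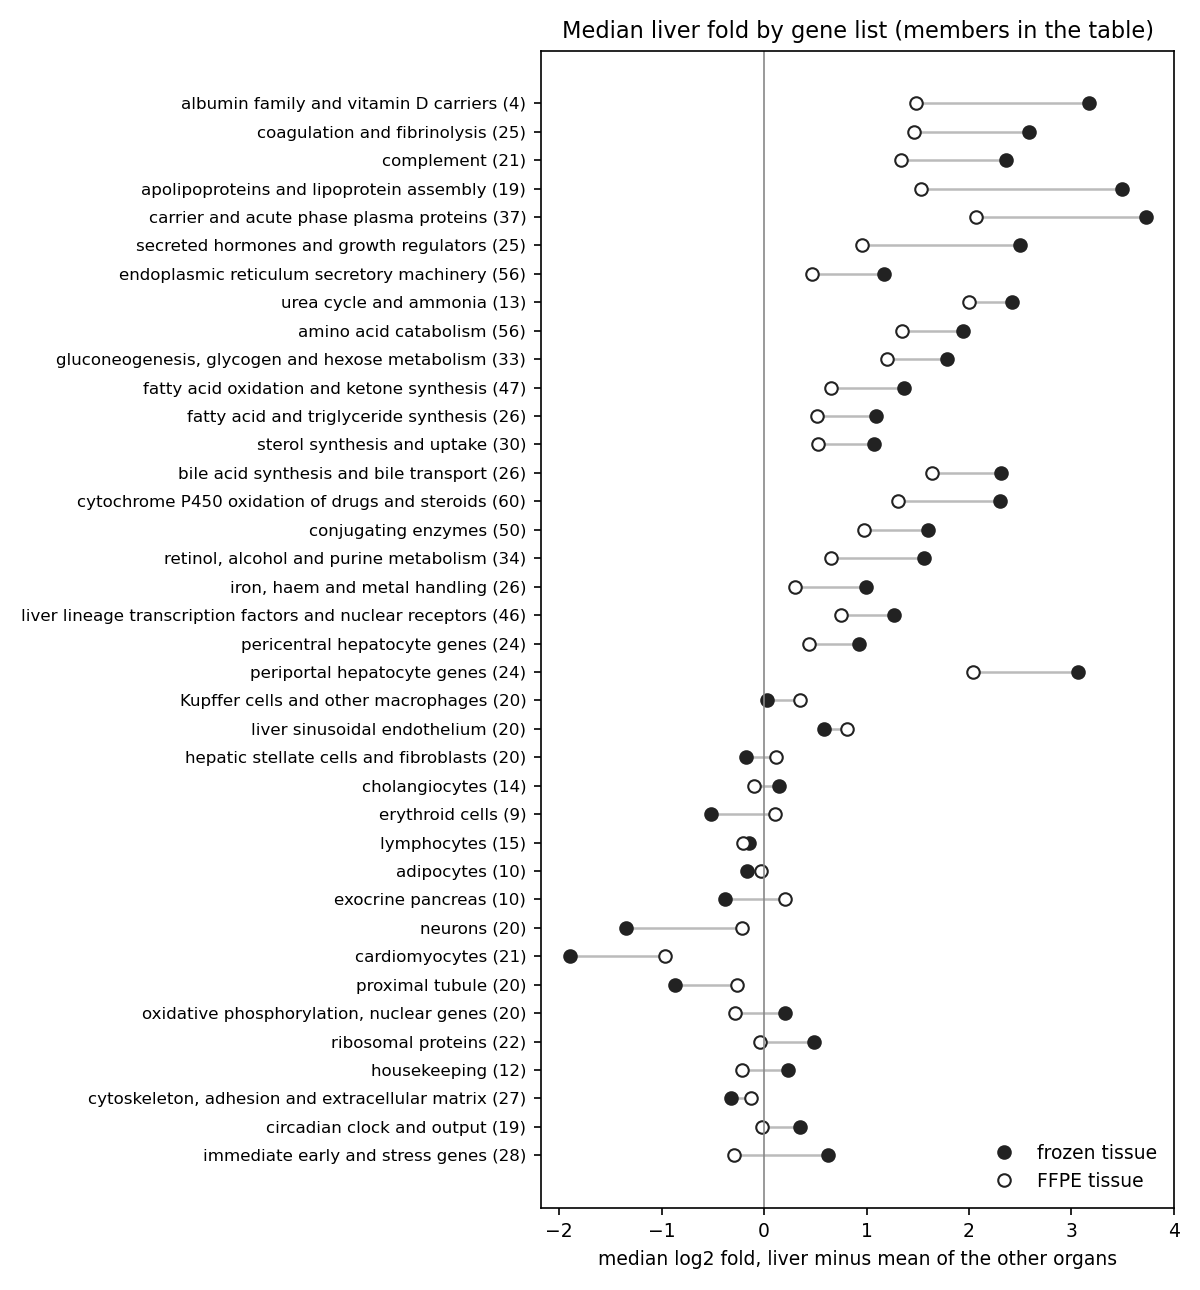
Median log2 fold of the members in the table (horizontal axis, liver minus the mean of the other organs) for 38 gene lists, with list size in brackets; filled points are frozen and open points FFPE tissue. Carrier and acute phase proteins lie farthest right at 3.72 frozen and 2.06 FFPE, and cardiomyocyte genes farthest left at -1.90 and -0.96.

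Among metabolic groups, genes of the urea cycle and of ammonia handling had the highest median fold, close to the 2.09 of the bile acid list. Of 13 genes, 11 were higher and 0 lower, with a median fold of 2.18 (2.42 frozen and 2.0 FFPE). Cps1, the mitochondrial entry enzyme of the cycle, had 5.11 and 4.75 in brain, 4.31 and 5.06 in heart, 5.00 and 4.61 in kidney and 10.25 and 9.08 in liver. All 6 other profiles lay close together and both liver profiles far above them, with a fold of 4.86 ± 0.29. Ass1, which joins citrulline and aspartate, had 3.50 and 3.34 in brain, 3.78 and 3.58 in heart, 5.99 and 5.83 in kidney and 8.39 and 7.35 in liver, so that kidney lay between liver and the other organs, and the fold over kidney alone was 1.96 ± 0.35. Arginase (Arg1, 3.34 ± 0.39), Asl (2.60 ± 0.30) and Otc (1.63 ± 0.49) were higher as well. Only Glul (-0.25 ± 0.26) and the ammonia transporter gene Rhbg (-0.21 ± 0.39) did not pass the test.

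Of 56 genes of amino acid breakdown, 39 were higher and 0 lower, with a median fold of 1.62. Besides Tat, the largest folds belonged to the betaine-dependent methyltransferase Bhmt (4.10 ± 0.33), the tryptophan-opening enzyme Tdo2 (4.08 ± 0.35), the methionine adenosyltransferase Mat1a (3.90 ± 0.31) and the tyrosine-pathway enzyme Hpd (3.71 ± 0.29). Enzymes of branched-chain amino acid and propionate breakdown such as Ivd (0.16 ± 0.28), Bckdhb (0.43 ± 0.47), Mccc1 (-0.35 ± 0.29), Pcca (0.65 ± 0.30) and Mmut (0.20 ± 0.33) did not pass the test, although Bckdha did (1.29 ± 0.31).

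Glucose output is a function that liver is known to share with the kidney. Of 33 genes of gluconeogenesis, glycogen and hexose metabolism, 20 were higher (11 without the frozen liver) and 2 lower, with a median fold of 1.40. Pck1, which commits oxaloacetate to glucose, had 4.34 and 3.81 in brain, 4.31 and 4.46 in heart, 9.46 and 7.88 in kidney and 11.78 and 8.88 in liver. Frozen kidney was above FFPE liver, but within each preservation liver was the highest, with a fold of 4.62 ± 0.35 over the 3 organs and 1.66 ± 0.43 over kidney alone.

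G6pc, the glucose-releasing phosphatase, had 3.63 and 3.76 in brain, 2.82 and 2.79 in heart, 6.12 and 6.87 in kidney and 10.22 and 7.78 in liver. Kidney was again second, and the folds were 4.67 ± 0.39 and, over kidney alone, 2.50 ± 0.48 (limma adjusted p 0.00282). Fbp1 (2.53 ± 0.42), which removes a phosphate on the way to glucose, the glycogen-targeting subunits Ppp1r3b (2.82 ± 0.24) and Ppp1r3c (2.18 ± 0.30) and liver glycogen synthase Gys2 (1.93 ± 0.34) were higher. For Slc2a2, the glucose transporter of hepatocytes and proximal tubule, the fold was 1.25 ± 0.37 over the 3 organs but 0.24 ± 0.45 over kidney, where it did not pass the test (adjusted p 0.881 in limma).

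The 2 genes of that list that were lower were Pck2 and Ppargc1a, and 0 to 2 members passed as lower with any 1 profile left out. Pck2, the mitochondrial form of the same enzyme as Pck1, had 5.62 and 5.77 in brain, 5.68 and 5.44 in heart, 4.88 and 5.35 in kidney and 4.57 and 4.23 in liver. Both liver values lay below the other organs of the same preservation, and the fold was -1.06 ± 0.29 (adjusted p 0.0211, limma). Ppargc1a, a coactivator of mitochondrial and gluconeogenic genes, had a fold of -0.84 ± 0.23. Khk (0.93 ± 0.34), Ugp2 (0.56 ± 0.24) and Gbe1 (0.68 ± 0.28) did not pass the test.

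Of 47 genes of fatty acid oxidation and ketone synthesis, 23 were higher (4 without the frozen liver), 0 lower and 1, Pex11a, was not kept, and the median fold over all 47 was 1.00. The liver fatty acid binding protein Fabp1 (3.81 ± 0.69) was kept only through its liver values, and the nuclear receptor Ppara (1.57 ± 0.23) and the mitochondrial entry enzyme Cpt1a (1.19 ± 0.23) had smaller folds. Bdh1 (0.23 ± 0.26), which interconverts ketone bodies, did not pass the test. The mitochondrial oxidation enzymes Hadha (0.21 ± 0.24), Hadhb (-0.35 ± 0.35), Acadvl (0.09 ± 0.25) and Acadm (0.33 ± 0.29) did not pass it either.

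In fatty acid and triglyceride synthesis 11 of 26 genes were higher (7 without the frozen liver) and 0 lower, with a median fold of 0.84. The elongase Elovl2 (2.50 ± 0.28) and the phosphatidate phosphatases Lpin1 (2.35 ± 0.24, overlapping Ntsr2) and Lpin2 (2.27 ± 0.23) led, together with Elovl3 (3.02 ± 0.39), whose span overlaps Pitx3. Fatty acid synthase (Fasn) had 7.65 and 7.20 in brain, 6.83 and 6.86 in heart, 7.04 and 6.99 in kidney and 8.44 and 8.02 in liver, with liver highest in both preservations by a moderate amount and a fold of 1.13 ± 0.21. Stearoyl-CoA desaturase Scd1 had 6.53 and 6.15 in brain, 4.80 and 5.77 in heart, 4.72 and 5.89 in kidney and 5.39 and 6.41 in liver. Its frozen liver value fell within the range of the other organs, and the fold of 0.26 ± 0.29 did not pass the test.

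Sterol genes gave a similar count, with 12 of 30 higher (4 without the frozen liver, 6 without the frozen kidney, 7 without the frozen brain), 0 lower and a median fold of 0.77. Insig1, which holds the sterol sensor in the endoplasmic reticulum, had 5.96 and 5.74 in brain, 5.92 and 5.67 in heart, 5.56 and 5.22 in kidney and 9.40 and 6.62 in liver. The frozen liver was far above the rest and the FFPE liver moderately so, with a fold of 2.33 ± 0.35, and Insig2 had 2.28 ± 0.35. Srebf2 (-0.01 ± 0.23), Hmgcs1 (0.59 ± 0.25) and Cyp51 (0.41 ± 0.22) did not pass the test.

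Bile acid synthesis and transport had 25 of 26 genes higher (14 without the frozen liver) and 0 lower, with a median fold of 2.09. Cyp7a1, the rate-limiting enzyme of bile acid synthesis, had 4.95 and 4.72 in brain, 2.95 and 4.75 in heart, 4.66 and 4.48 in kidney and 7.84 and 7.36 in liver. Frozen and FFPE liver were close to each other and above every other profile, with a fold of 3.19 ± 0.35. Cyp8b1, which makes cholic acid, had a fold of 3.76 ± 0.46, the bile salt export pump Abcb11 2.01 ± 0.27, the sodium-coupled uptake carrier Slc10a1 1.25 ± 0.33 and the sinusoidal anion carrier Slco1b2 3.22 ± 0.39. Abcg5 (1.50 ± 0.32) and Abcg8 (2.08 ± 0.30), which export sterols into bile, overlap on the annotation. Abcb1a, a drug pump found in many barriers, was the single member that did not pass the test (0.17 ± 0.30).

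Cytochrome P450 genes and related drug and steroid enzymes, carboxylesterases and epoxide hydrolases among them, had 40 of 60 genes higher and 0 lower. The median fold was 1.71 (2.30 frozen and 1.30 FFPE), and fewer members passed without the frozen liver. In the fit of liver against not liver 18 were higher, and with voom weights 44. Cyp2e1, which oxidises ethanol and small solvents, had 3.75 and 3.26 in brain, 3.63 and 3.42 in heart, 6.02 and 4.12 in kidney and 9.07 and 7.03 in liver. Frozen kidney was the nearest of the other profiles, still below FFPE liver, and the fold was 4.01 ± 0.35. Cyp2d9 (4.48 ± 0.41), Cyp2d10 (4.37 ± 0.41), Cyp3a11 (4.29 ± 0.40) and Cyp3a25 (4.28 ± 0.46) had the highest folds, but the 2c, 2d and 3a subfamilies hold near-identical copies. Por, the reductase that feeds electrons to all of them, was higher by 0.85 ± 0.26. Ephx1 (0.50 ± 0.34), Fmo1 (0.45 ± 0.31) and Cyp2u1 (0.18 ± 0.38) did not pass the test.

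Conjugating enzymes had 24 of 50 genes higher (4 without the frozen liver) and 0 lower, with a median fold of 1.27. The glutathione transferase Gsta3 (3.63 ± 0.37), the glucuronosyltransferases Ugt2b35 (3.41 ± 0.39) and Ugt2b36 (3.11 ± 0.49) and the sulfotransferase Sult2a8 (3.28 ± 0.41) led. Glyat, which joins glycine to benzoate, had a fold of 2.53 ± 0.53 over the 3 organs but 0.16 ± 0.65 over kidney, where it did not pass the test. The Ugt1a genes share exons, so their counts are not independent.

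Retinol, alcohol and purine genes had 16 of 34 higher (7 without the frozen liver) and 0 lower, with a median fold of 1.08. Rdh7 (3.92 ± 0.46), a retinol dehydrogenase family member, urate oxidase (Uox, 3.34 ± 0.43, overlapping Dnase2b) and Urah (2.83 ± 0.58), which acts on the product of urate oxidase, were highest. Xdh (0.34 ± 0.24) and Pnp (0.02 ± 0.29), which act earlier in purine breakdown, did not pass the test.

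In iron, haem and metal handling 9 of 26 genes were higher (3 without the frozen liver) and 0 lower, with a median fold of 0.68. Alas1, the rate-limiting enzyme of haem synthesis outside red cells, had 6.31 and 5.94 in brain, 6.57 and 6.27 in heart, 6.69 and 6.55 in kidney and 10.72 and 7.69 in liver. Frozen liver, with 3169 reads, was far above the rest, and FFPE liver exceeded the other FFPE organs by a smaller amount, with a fold of 2.82 ± 0.36. The hepcidin regulators Hjv (2.38 ± 0.34), Tfr2 (1.77 ± 0.29) and Tmprss6 (1.32 ± 0.31) and the iron exporter Slc40a1 (1.78 ± 0.31) were higher. Of the later haem enzymes Cpox was higher (1.06 ± 0.28), and Alad (0.76 ± 0.28), Uros (0.05 ± 0.29), Urod (-0.07 ± 0.36), Ppox (0.04 ± 0.30) and Fech (0.61 ± 0.27) did not pass the test.

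Transcription factors and nuclear receptors known in the hepatocyte had 23 of 46 genes higher (8 without the frozen liver) and 0 lower, with a median fold of 0.82. Hnf4a, a nuclear receptor central to hepatocyte identity, had 4.68 and 4.45 in brain, 4.31 and 4.69 in heart, 7.89 and 7.22 in kidney and 9.21 and 7.40 in liver. Kidney was close to liver in FFPE tissue, the fold over kidney alone was 0.75 ± 0.37 (adjusted p 0.341, limma), and the fold over the 3 organs was 2.77 ± 0.30, with an antisense gene, Hnf4aos, overlapping. Hhex (2.94 ± 0.47), Foxa3 (2.65 ± 0.39), Foxa2 (2.42 ± 0.38), the xenobiotic receptor Nr1i3 (2.50 ± 0.33, overlapping Tomm40l), Cebpb (2.15 ± 0.31) and Cebpa (2.10 ± 0.33) were higher. Gata4 (0.79 ± 0.27), Zbtb20 (0.22 ± 0.24) and Tef (-0.16 ± 0.23) did not pass the test.

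Hepatocytes differ along the lobule, from the portal vein to the central vein. Of 24 genes known from the periportal side, 21 were higher in liver than in the other organs (12 without the frozen liver) and 0 lower, with a median fold of 2.57, and of 24 known from the pericentral side 7 were higher and 0 lower, with a median fold of 0.54. Glul, glutamine synthetase, the best known pericentral enzyme, had 6.63 and 6.66 in brain, 7.72 and 6.59 in heart, 6.36 and 6.39 in kidney and 7.05 and 5.90 in liver. Frozen heart was above frozen liver and FFPE liver was the lowest of all 8 profiles, and the fold of -0.25 ± 0.26 did not pass the test. Axin2 (0.03 ± 0.26), Lgr5 (0.20 ± 0.35) and Oat (0.30 ± 0.32) did not pass it either, while Cyp2e1, Cyp7a1, Cyp27a1 (2.13 ± 0.31), Cyp1a2 (1.88 ± 0.43), Ahr (1.78 ± 0.25), Rnf43 (1.44 ± 0.31) and Slc22a3 (1.21 ± 0.29) were higher. On the periportal side Ctsc (1.10 ± 0.37), Aldh1b1 (0.71 ± 0.38) and Cdh1 (0.57 ± 0.33) did not pass. These counts describe liver against other organs, not position within the liver, and 1 zone was not tested against the other.

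**Figure D4:**
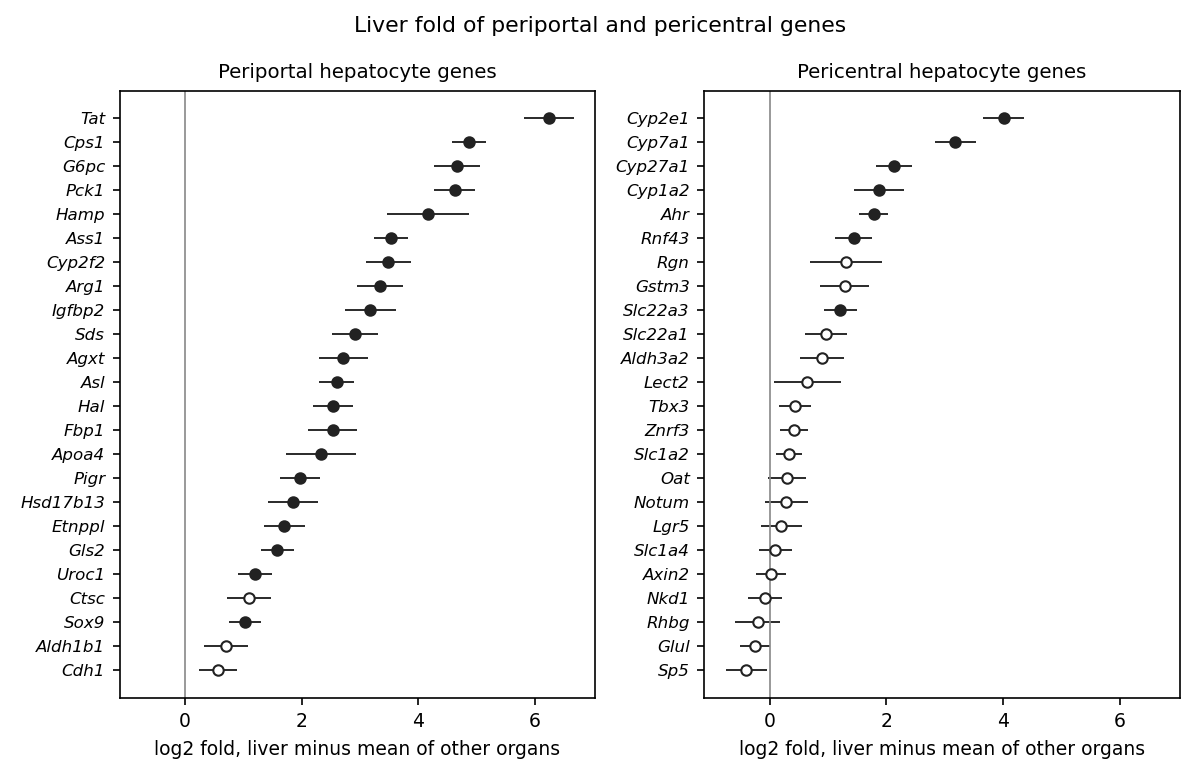
Log2 fold of liver over the mean of the other organs (horizontal axis, bars are standard errors of the limma fit) for 24 periportal (left) and 24 pericentral (right) hepatocyte genes; filled points passed the test as higher. Filled points make up 21 of the 24 on the left and 7 of the 24 on the right, where Glul, Rhbg and Sp5 are among the genes below 0.

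In bulk tissue, fewer cells of a type and less polymerase per cell cannot be told apart, and this holds for each cell type below. Markers of other liver cells were examined next. Of 20 macrophage genes, which include Kupffer cell markers, 0 were higher or lower by limma (2 at an unadjusted p under 0.05, and 2 higher with voom weights or without the FFPE liver), and the summed list held 0.0618% and 0.0658% of the nuclear reads in liver against 0.0454% to 0.064% elsewhere. The Kupffer marker Clec4f, with 48 reads in the frozen liver and 15 in the FFPE liver, was within the range of levels in other organs, with a fold of 0.44 ± 0.42.

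Of 20 genes of liver sinusoidal endothelium, 7 were higher (2 without the frozen liver) and 2 lower (0 to 1 with any 1 profile left out). Clec4g, a lectin of these cells, had 4.14 and 3.65 in brain, 3.63 and 2.50 in heart, 3.11 and 4.00 in kidney and 5.59 and 5.37 in liver. Both liver values were the highest of their preservation, with a fold of 1.98 ± 0.43. Bmp2 (1.60 ± 0.34), which is released to hepatocytes, and the hyaluronan receptor Stab2 (1.36 ± 0.23) were higher, while Pecam1 (-0.85 ± 0.26), an adhesion molecule of endothelium in general, and Cd36 (-0.97 ± 0.25), a fatty acid uptake protein, were lower. For stellate cells and fibroblasts 1 of 20 was higher, Fn1 (2.31 ± 0.24), which hepatocytes also secrete, and 2 were lower, Des (-1.54 ± 0.33) and Pdgfra (-0.81 ± 0.24), of which 1 to 2 passed with any 1 profile left out.

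Of 14 bile duct genes 2 were higher (0 to 3 with any 1 profile left out), Krt8 (2.16 ± 0.43), a keratin that hepatocytes share, and Sox9 (1.02 ± 0.28). Of 9 erythroid genes 6 were kept and 1 was higher, Alas2 (1.95 ± 0.48, not without either liver profile), with the globin genes Hba-a1, Hba-a2 and Hbb-bs not kept. Lymphocyte (15 genes) and exocrine pancreas (10 genes) lists had 0 calls in either direction by limma (0 at an unadjusted p under 0.05, and 0 with voom weights), and the adipocyte list of 10 had Cidec (1.74 ± 0.41, not called without the frozen liver) higher, a lipid droplet gene that is also counted under fatty acid oxidation.

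Marker genes of the other organs were among the lower genes, mainly against the organ they mark. For cardiomyocyte genes the median difference was -3.65 from heart, -0.18 from brain and -0.32 from kidney. Neuronal genes had -1.78 from brain, -0.22 from heart and -0.35 from kidney. Proximal tubule genes had -1.59 from kidney and 0.06 from both brain and heart. In the fit of liver against not liver, 0 members of these lists were lower. Of 21 cardiomyocyte genes 14 were lower (9 without the frozen liver) and 0 higher, with a median fold of -1.43. Cardiac actin (Actc1) had 3.57 and 3.41 in brain, 9.66 and 7.86 in heart, 3.49 and 3.36 in kidney and 2.0 and 1.91 in liver. The level was high in heart, and liver was lowest of all organs with 7 and 3 reads, giving a fold of -3.27 ± 0.39. Summed over the list, cardiomyocyte genes held 0.13% and 0.152% of nuclear reads in frozen and FFPE liver, 1.27% to 2.16% in heart and 0.145% to 0.184% in brain and kidney, and none was at 0 reads in liver.

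Of 20 neuronal genes 5 were lower (1 without the frozen liver, 9 without the FFPE liver, 2 without the frozen brain and 3 without any 1 of FFPE brain, frozen heart, FFPE kidney or frozen kidney) and 0 higher, with a median fold of -0.73 (-1.34 frozen and -0.22 FFPE). They were Thy1 (-1.83 ± 0.53), Eno2 (-1.70 ± 0.30), Camk2a (-1.48 ± 0.26), Stmn2 (-1.38 ± 0.41) and Grin1 (-1.33 ± 0.31). The list held 0.0297% and 0.0648% of nuclear reads in liver, 0.193% to 0.194% in brain and 0.0476% to 0.0605% in heart and kidney, so that FFPE liver was above frozen liver.

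The 20 proximal tubule genes split into 5 lower (2 without the frozen liver), 4 higher and 11 that did not pass the test. Lower were Miox (11 reads in frozen and 0 in FFPE liver against 6 to 88 reads elsewhere, so no fold is given), the phosphate carrier Slc34a1 (-2.09 ± 0.28, overlapping Pfn3), Slc22a12 (-1.52 ± 0.33), Slc5a12 (-1.46 ± 0.30) and the scavenger receptor Lrp2 (-0.72 ± 0.22), and higher were Cyp2e1, Hnf4a, Slc27a2 (2.87 ± 0.31) and Keg1 (2.35 ± 0.40), which hepatocytes also use. For Keg1 the difference from kidney was -0.02 ± 0.49 and did not pass the test. How far the makeup of the other organs sets the lower genes was not tested.

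The 10 lowest folds among genes clear of the other organs included several of genes with few reads. Srsx, Olfr1324, Tas2r137, Olfr1441 and Gm8512 had 0 reads in both liver profiles, where a count of 0 allows up to 3 reads, so that no fold is given. For Lrfn2 the frozen liver held 0 reads and the FFPE liver 9, against 10 to 60 reads elsewhere. Slitrk3, a synaptic adhesion gene, had 13 and 0 reads in liver and 8 to 104 reads elsewhere, the homeobox gene Lbx1 5 and 0 against 13 to 28 reads, and the olfactory receptor gene Olfr692 2 and 0 against 4 to 27 reads. With no read in 1 liver profile their folds depend on the added 0.5 read and are not given. The last of the 10 was Actc1, described above.

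Genes of general cell functions were examined as well. Of 22 ribosomal protein genes 0 were higher or lower by limma (2 at an unadjusted p under 0.05, 1 higher with voom weights and 2 without the FFPE liver), and the median fold was 0.18. Of 20 nuclear genes of oxidative phosphorylation 0 were called by limma (2 at an unadjusted p under 0.05, 0 with voom weights and 1 lower without the frozen liver), with a median of -0.09. The housekeeping list had 1 of 12 higher (0 to 2 with any 1 profile left out), B2m (1.21 ± 0.33), which pairs with class I antigen-presenting molecules. Cytoskeleton, adhesion and matrix genes had 1 of 27 higher, Fn1, and 4 lower (0 to 2 with any 1 profile left out), Col4a1 (-0.75 ± 0.21), Col4a2 (-0.71 ± 0.22), Flna (-0.94 ± 0.23) and Thbs1 (-0.94 ± 0.26).

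Genes that respond to time of day or handling were looked at because collection times are not in the labels used here. In the clock list 2 of 19 were higher, among them Rora (1.07 ± 0.31), and 2 lower, Nr1d1 (-1.28 ± 0.23, overlapping Thra) and Per1 (-0.68 ± 0.21), and with any 1 profile left out 0 to 2 passed as higher and 1 as lower. In the immediate early and stress list 5 of 28 were higher (1 to 11 with any 1 profile left out) and 2 lower (2 to 4). Zfp36, which marks short-lived mRNA for decay, had 4.45 and 3.91 in brain, 7.47 and 7.49 in heart, 7.09 and 6.81 in kidney and 9.96 and 7.88 in liver. Liver was the highest organ and brain by far the lowest, with a fold of 2.71 ± 0.29, while Nr4a1 (-2.08 ± 0.27) and Klf4 (-1.10 ± 0.26) were lower and Fos (-0.15 ± 0.25) and Egr1 (0.40 ± 0.27) did not pass the test. The part of collection time in these values was not tested.

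Liver folds of the function groups were mostly smaller in FFPE than in frozen tissue. Over the higher genes the median was 1.89 in frozen and 1.12 in FFPE tissue, and over the lower genes -1.37 and -1.02. The fold was smaller in FFPE tissue for 23 of 25 coagulation genes, 34 of 37 carrier and acute phase genes, 54 of 60 P450 and related genes, 29 of 33 gluconeogenesis genes and 51 of 56 secretory machinery genes, against 13737 of 27179 genes over the table. It was also smaller for 22 of 22 ribosomal protein genes. Shares were lower in other lists, such as amino acid breakdown (41 of 56), complement (16 of 21), sterol (22 of 30) and pericentral genes (14 of 24). Folds were compared with their sign and those over the table had both signs. Its share is therefore not a like background for lists with mostly positive folds. For Alb the fold was 7.54 in frozen and 4.67 in FFPE tissue, and for Cyp7a1 3.66 and 2.71.

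A test of the difference itself gave 0 genes at an adjusted p under 0.05 by limma (2180 at an unadjusted p under 0.05), with 2 residual degrees of freedom and 1 liver difference. The genes called above were selected using both preservations. FFPE liver had the lowest read total and the frozen liver the highest, and the part of depth, of preservation and of extraction in the smaller folds was not tested.

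**Figure D5:**
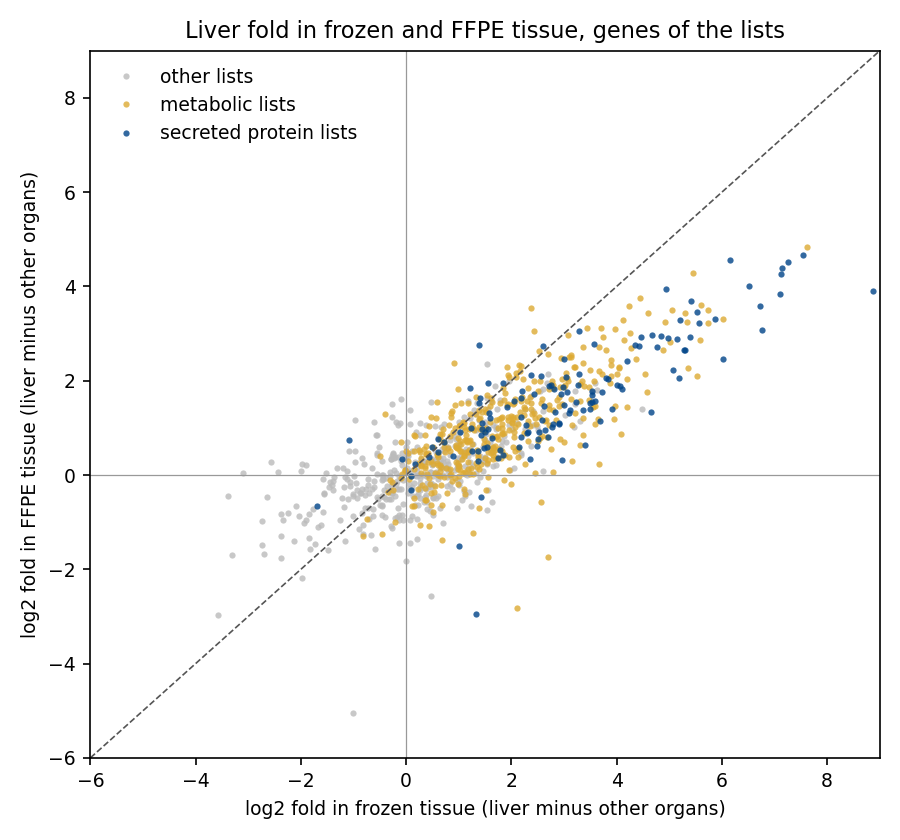
Log2 fold of liver over the other organs in frozen tissue (horizontal axis) and FFPE tissue (vertical axis), 1 point per gene of the lists; blue are secreted protein lists, yellow metabolic lists and grey the rest, and the dashed line marks equal folds. Blue and yellow points with high folds lie mostly below the line, as for Alb at 7.54 and 4.67.

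Set against kidney alone, the groups differed in their medians. The median difference from kidney was 3.03 for carrier and acute phase genes (27 of 37 higher), 2.55 for apolipoprotein genes (11 of 19), 1.81 for coagulation genes (14 of 25), 1.74 for secreted hormones (11 of 25) and 1.41 for complement genes (10 of 21). It was 2.01 for urea cycle and ammonia genes (10 of 13) and 1.42 for amino acid breakdown (23 of 56). Gluconeogenesis genes had 0.83 (10 of 33) and transcription factors 0.66 (17 of 46). For P450 and related genes it was 1.28 (19 of 60), and for bile acid genes 1.72 (16 of 26). The background against kidney is the 2.58% given above, and differences between the groups were not tested.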

How the data were processed

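Pol II was profiled by chromatin immunoprecipitation and sequencing in 4 mouse organs, frozen and FFPE. The authors deposited 1 table of log2 values, 1 column per organ and preservation. Bowtie2, featureCounts, limma and the mm10 build are named in the submitters' processing notes, without versions or settings, and no source used here gives the strand of counting. Every log2 value returned a whole read count (tolerance 1e-06) with 0.5 added and a scaling factor of 0.862 to 1.12, so the deposited values are log2 CPM of scaled depth, not divided by gene length. Precision follows from 864816 to 2178329 reads per profile. Symbols came from the table, which has 1275 genes without one, and coordinates and promoters from RefSeq for GRCm38.p6, matched by Entrez ID (93.0% of genes). Input libraries were not used.

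Genes were tested with limma 3.58.1 in R 4.3.3, with organ and preservation as terms, a trended prior and Benjamini-Hochberg adjustment at 0.05 over all 24497 genes tested. The fit was tested on simulated data that held no organ-specific effect of preservation, and the outcome is not reported here. The members and lists were chosen with earlier results of these data known. The 38 lists hold 934 genes, 2 matched by synonym, and Hbb-bt and Ahsp were not analysed here. Some list members are counted but not reported by name here.

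Named genes were the 4 markers, up to 5 called genes per list with the largest absolute fold, up to 3 uncalled ones with the highest mean level, any called against its list's direction, and the 10 highest and 10 lowest folds clear of the other organs; other list members were named to say what a list holds. Promoters printed were those of Alb and of up to 4 further called secreted genes with the highest folds that hold GTTAAT or a searched C/EBP motif. Alternatives were other scalings, filters, added reads, voom weights, terms and trend, each profile left out, and a 200 base promoter window. Centring on the median gene and classes by gene name were added after seeing the data.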

Additional observations from a re-analysis of the deposited data

How the results depend on the processing

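The counts of 1242 higher and 938 lower genes moved by less than 1.5 times in both directions under quantile normalization (1153 and 1134), 3 other filters on low values (1148 to 1249 and 825 to 950), an addition in proportion to depth (1278 and 950), mitochondrial genes left out without scaling factors (1072 and 1260), FFPE heart and kidney left out together (1182 and 764), and, chosen after seeing the data, centring on the median (1171 and 832). They moved further elsewhere: scaled to silent receptors 523 were lower, with voom weights 1935 were higher, without the preservation term 616 were lower, liver against not liver gave 386 and 53, and without a trend 0 and 0. The 439 genes of liver against not liver were all among the 2180 called, with the same direction. With each profile left out, the counts ran from 339 to 1670 higher and from 465 to 1233 lower, the lowest higher count without the frozen liver (339, with 472 lower) and the highest without the FFPE liver. Without frozen brain 465, frozen kidney 539, FFPE brain 539 and frozen heart 575 were lower. Of 161 named genes called, none reversed under any setting; all lost their call without a trend, 61 without the frozen liver and 60 in liver against not liver. No paired analysis was possible because the columns carry no replicate numbers. For a promoter window of 200 bases, the GTTAAT share was 8.88% among higher genes and 5.23% over all genes with a promoter entry. Depth limits genes with few reads, above all in FFPE heart and FFPE liver.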

Other observations

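Genes grouped by their names over the whole table, a grouping made after seeing the data, gave counts beyond the lists. Of 394 solute carrier genes 47 were higher and 29 lower, and of 202 genes named as dehydrogenases 36 were higher and 4 lower. Cytochrome P450 genes had 40 of 104 higher and 1 lower, serpin genes 18 of 63 and 1, and carboxylesterase genes 8 of 19 and 0. On the other side, potassium channel genes had 14 of 103 lower and 1 higher, collagen genes 5 of 44 lower and 1 higher, and myosin genes 5 of 28 lower and 0 higher. Of 1527 olfactory, vomeronasal and taste receptor genes 1343 were kept, and 6 were lower and 0 higher. Among 415 zinc finger protein genes 11 were higher and 12 lower, against 5.07% and 3.83% over all genes tested.

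Of the 1242 higher genes, 408 were in the lists. Several of the others, chosen after their values were seen, had large folds. The protease inhibitor gene Mug1 had 4.82 and 4.92 in brain, 4.45 and 4.46 in heart, 5.12 and 4.57 in kidney and 10.81 and 9.07 in liver (frozen, then FFPE), and a fold of 5.22 ± 0.29. Both liver values stood far above all others. Mup1 (4.45 ± 0.57), which has near-identical copies, the mitochondrial carrier gene Slc25a47 (4.13 ± 0.36), the amino acid carrier Slc38a4 (3.53 ± 0.28), carbonic anhydrase 3 (Car3, 3.57 ± 0.64), the glycerol channel Aqp9 (3.21 ± 0.37), catalase (Cat, 3.03 ± 0.29) and the growth factor receptor Egfr (2.86 ± 0.25, overlapping Egfros) were also higher. Against kidney alone Car3 did not pass the test (2.06 ± 0.79).

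Of the 938 lower genes, 38 were in the lists. Oxct1, which lets tissues other than liver burn ketone bodies and overlaps BC037032, had 5.15 and 5.38 in brain, 5.32 and 4.75 in heart, 5.64 and 5.27 in kidney and 2.95 and 3.19 in liver. Both liver values were below the other organs of the same preservation, and the fold was -2.18 ± 0.33. Slc25a4, the adenine nucleotide carrier of heart and muscle mitochondria (-2.17 ± 0.32), the small heat shock protein gene Cryab (-2.54 ± 0.29, overlapping Hspb2) and Fhl2 (-2.29 ± 0.39), a muscle-rich LIM protein gene, were lower as well. Their differences were largest from heart, at -3.40 for Slc25a4, -4.67 for Cryab and -4.15 for Fhl2. Slc25a4 did not pass against kidney (-1.25 ± 0.39), nor did Fhl2 against brain (-0.83 ± 0.48). No explanation was tested.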
